A study of Sus scrofa with 43 samples.

Results

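The insulin-like growth factor axis was followed in the jejunum of piglets from day 1 of life until 4 wk after weaning. Its 9 genes were the ligands IGF1 and IGF2, the growth hormone receptor GHR, the receptors IGF1R and IGF2R, and the binding proteins IGFBP2, IGFBP3, IGFBP4 and IGFBP5. They were found by symbol through the porcine RefSeq transcript accession that the array design gives for each spot, and all 9 had at least 1 probe among the 35884 accessions on the array. The largest difference between ages was in IGF2, whose level was 19.7-fold lower at day 7 than at day 1 in control piglets and 15.0-fold lower in piglets from amoxicillin-treated sows. IGF2R, IGFBP2 and IGFBP3 were also called over the 5 ages in both arms, with and without the filter on dim genes. Over age, the fit without the filter called 4814 of 35334 genes in control and 12297 in amoxicillin piglets. Once slides were entered as fixed blocks, IGF2 alone stayed called. That fit called 66 of 12771 tested genes over age in control and 1328 in amoxicillin piglets, against 3900 and 6000 without blocks. IGF1, IGFBP5 and GHR did not pass the test over age. None of the 7 genes that could be tested was called different between the arms at any age, where 0% to 3.41% of all tested genes were.

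Growth hormone acts through GHR to raise IGF1 in the liver and in many other tissues. IGF2 is a growth factor of fetal life, and its gene is imprinted. Both ligands signal through the tyrosine kinase receptor IGF1R, while IGF2R carries IGF2 and lysosomal enzymes to the lysosome and does not transmit growth signals in the same way. The binding proteins hold the ligands in blood and tissue, and can limit or prolong their action. In the intestine the axis is known for its part in the growth of the mucosa and of the muscle layer, and colostrum supplies IGF peptides to the newborn.

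Jejunal scrapings of 43 male piglets were hybridized to 1 one-color Agilent porcine array each. The control arm held 23 piglets from Hypor sows and gilts on standard feed. The amoxicillin arm held 20 piglets from such sows that had Paracillin SP, an amoxicillin product, on top of that feed at 15 mg/kg BW each day in the last week of gestation. A scraping can mix epithelium with cells of the lamina propria and of deeper layers. The amoxicillin arm had 4 arrays at every age. The control arm had 6 arrays on each of days 1 and 7, 3 from weaning (day 26), 5 from the day 4 d later and 3 from 4 wk after weaning. Piglets were killed for sampling, so that the ages hold different animals, and 1 piglet was taken per sow at an age. Piglets of different ages can therefore share a sow, and the sows were divided over batches. The labels give neither sow nor batch, and the tests treat arrays as independent unless a block is named. Control piglets 19 and 19B of day 1 are separate samples in the labels.

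Values are log2 intensities after background correction and quantile normalization, so 1 unit is a 2-fold difference, and levels of different genes cannot be compared because each probe has its own brightness. A gene was tested if it exceeded a log2 intensity of 7.68 (1.1 times the brightest dark-corner spot, which was 6.98) on all arrays of 1 group or more, and 12771 genes did so. IGF1R and IGFBP4 did not pass and are described without a test. IGF2R passed through the day 1 groups only, IGFBP3 through the control group of day 7 only and GHR through the groups of days 1 and 7, so these genes entered the tests through ages at which they were high, which favours an age difference, and their age tests are given from a fit without the filter as well. No probe of the 9 genes was saturated or carried an outlier flag. Arrays had 15937 to 29827 gene spots well above background in the control arm (median 28182) and 16150 to 26290 in the amoxicillin arm (median 21317). The amoxicillin group of 4 wk postweaning was the dimmest, with 16150, 16220, 18208 and 20940 such spots on its 4 arrays, and its part in the low values of IGF2R, IGFBP3 and IGFBP4 in that group was not tested. The lowest control array was piglet 34 at 4 wk postweaning, on which IGF1, IGF2R, IGFBP3 and IGFBP4 were not well above background. The arrays lay on 6 slides, 3 per arm, and no slide held both arms, so the slide cannot be told apart from the treatment, while several slides held more than 1 age of an arm. Some ages met on a slide through 1 array only. These arrays were of control 4 d postweaning (with weaning), amoxicillin day 7 (with weaning) and amoxicillin 4 d postweaning (with 4 wk). A fit with slides as fixed blocks compared these ages through that 1 array. The markers of enterocytes were well above background on every array for all 8 of the 15 listed genes that had a probe. Their summed level was lowest on the amoxicillin array of piglet 8 at weaning, at 17.24, while no array of the other 9 groups was below 18.16.

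**Figure D1:**
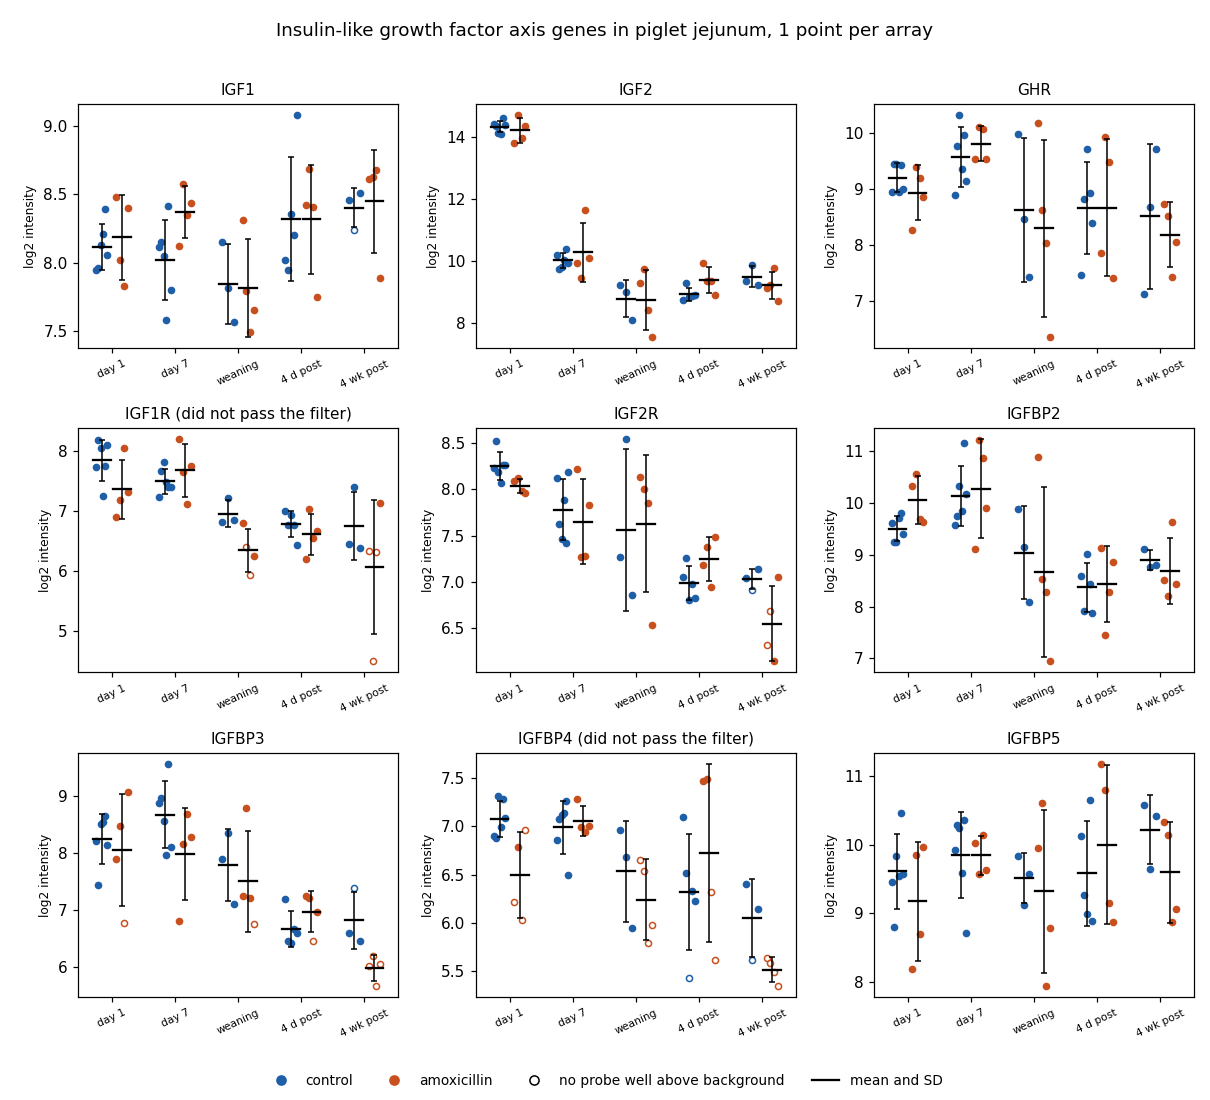
Log2 intensity of the 9 genes (y axis of each panel, own scale) at the 5 ages (x axis), with 1 point per array, control in blue and amoxicillin in orange, and black bars for the group mean and SD. Open points are arrays without a probe of the gene well above background. IGF2 lay between 13.80 and 14.70 on all day 1 arrays and at or below 11.66 on all later ones, and most other genes overlapped between ages and between arms.

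IGF2 was high in both arms on the first day and low from day 7 on. In control piglets its log2 intensity at day 1 ranged from 14.10 to 14.59 with a median of 14.36, and at day 7 from 9.74 to 10.39 with a median of 10.00. In amoxicillin piglets the 4 arrays of day 1 read 13.80, 13.95, 14.34 and 14.70, and the 4 of day 7 read 9.46, 9.94, 10.10 and 11.66. The lowest day 1 array of either arm thus lay above the highest day 7 array, which was amoxicillin piglet 24. The step from day 1 to day 7 was -4.30 (SE 0.29, 95% confidence interval -4.89 to -3.71, n = 6 and 6) in the control arm, with an adjusted p of 5.26e-13 in limma. In the amoxicillin arm the same step was -3.91 (SE 0.36, -4.63 to -3.18, n = 4 and 4), with an adjusted p of 4.42e-09 in limma. IGF2 was the only one of the 7 tested genes called in this step in either arm, where 1.43% of all tested genes were called in control and 0.736% in amoxicillin piglets. In bulk tissue, fewer cells of a type and less RNA per cell cannot be told apart.

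From day 7 to weaning the mean of IGF2 was lower again in both arms, by a smaller amount that was called in the amoxicillin arm. At weaning the 3 control arrays read 8.12, 9.01 and 9.24 and the 4 amoxicillin arrays 7.57, 8.44, 9.29 and 9.75, so that amoxicillin piglet 29 (9.75) lay above the lowest amoxicillin array of day 7 (9.46). The step from day 7 to weaning was -1.53 (SE 0.36, adjusted p 0.00526 in limma) in the amoxicillin arm, where 11.3% of all tested genes were called. In the control arm it was -1.23 (SE 0.36, -1.95 to -0.51, adjusted p 0.187 in limma, unadjusted p 0.00143), where 0.125% of all genes were called. The 2 arms were not shown to differ in this, since the test of the treatment contrast between ages gave an adjusted p of 0.832 for IGF2. Fitted on the arrays of each arm alone, the control step was called (adjusted p 0.00594 in limma) and the amoxicillin step was not (adjusted p 0.0879).

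After weaning IGF2 stayed near these levels. At 4 d postweaning the control arrays read 8.77, 8.84, 8.87, 8.92 and 9.29, and the amoxicillin arrays 8.92, 9.35, 9.37 and 9.95. At 4 wk the control arrays read 9.23, 9.37 and 9.87, and the amoxicillin arrays 8.72, 9.15, 9.23 and 9.78. Neighbouring groups overlapped, and no step after weaning was called in either arm. In order of level, the control ages ran from day 1 over day 7, 4 wk postweaning and 4 d postweaning to weaning, and only the last pair lay closer than the larger of their SDs. In the amoxicillin arm only day 1 stood farther from its neighbour than the larger SD. Between 4 wk postweaning and day 1 the group means differed by -4.83 in the control and -4.97 in the amoxicillin arm.

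All 5 probes of IGF2 showed the early drop. From day 1 to day 7 their means differed by -4.48 to -3.94 in the control and by -4.15 to -3.55 in the amoxicillin arm. They spread more at later ages, with differences between 4 wk postweaning and day 1 of -5.87 to -3.63 in control and -5.57 to -4.06 in amoxicillin piglets. The drop was also seen between arrays of the same slide. On the slide that held all 6 control piglets of day 1, the 2 control piglets of day 7 (9.95 and 10.19) differed from them by -4.25 on average. On the slide with all 4 amoxicillin piglets of day 1, the 3 of day 7 differed by -4.36. In a fit with slides as fixed blocks, where only comparisons within slides count, IGF2 stayed called over the 5 ages in both arms (adjusted p 3.35e-08 in control and 9.48e-10 in amoxicillin, limma).

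INS, the insulin gene, is the next gene to IGF2 on the same porcine chromosome in the Sscrofa11.1 annotation, with 0 genes between them, and its single probe followed a like course. Its log2 intensity in control piglets ranged from 11.53 to 13.94 (median 12.62) at day 1 and from 6.77 to 8.90 (median 7.31) at day 7. In amoxicillin piglets the range was 11.77 to 13.17 at day 1 and 5.99 to 8.43 at day 7. The step was -5.07 (SE 0.41, adjusted p 4.73e-11) in control and -5.09 (SE 0.50, adjusted p 2.18e-08) in amoxicillin piglets in limma, and within slides the day 7 arrays differed from those of day 1 by -3.96 (2 against 6 control arrays) and -5.21 (3 against 4 amoxicillin arrays). From 4 d postweaning in control and from weaning in amoxicillin piglets INS was not well above background on any array. At 4 wk postweaning it was at least 116-fold lower than at day 1 in control and at least 115-fold lower in amoxicillin piglets, with the dim arrays set no lower than their faintest spot well above background (measured group means of 12.75 and 4.76, and of 12.28 and 4.77). INS and IGF2 were both called over age in both arms. INS could pass the filter only through the day 1 groups, its highest, since every other group had an array at 6.77 or below. This favours an age difference, and no value of INS from the fit without the filter is given. Which transcript each probe reads was not tested.

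**Figure D2:**
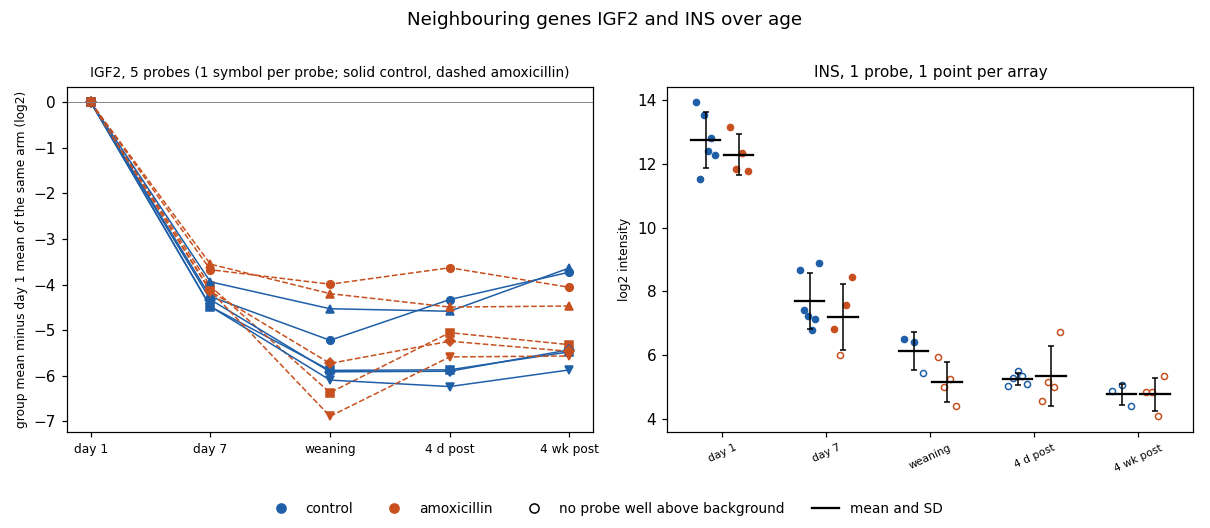
Left, group mean of each of the 5 IGF2 probes minus its day 1 mean in the same arm (log2, y axis) over the 5 ages (x axis), with 1 symbol per probe, solid blue lines for control and dashed orange lines for amoxicillin. Right, log2 intensity of the INS probe by array with group mean and SD. The IGF2 probes differed by -4.48 to -3.55 at day 7, and INS lay at 11.53 or above on all day 1 arrays and at 8.90 or below on all later ones.

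IGF1 did not pass the test over age in either arm. In control piglets it ranged from 7.94 to 8.39 (median 8.09) at day 1 and from 7.58 to 8.42 (median 8.08) at day 7. The control arrays of weaning read 7.56, 7.82 and 8.15, those of 4 d postweaning 7.94, 8.02, 8.20, 8.36 and 9.08, and those of 4 wk 8.24, 8.46 and 8.51. The amoxicillin means were 8.18 ± 0.31 (SD, n = 4) at day 1, 8.37 ± 0.19 at day 7, 7.81 ± 0.36 at weaning, 8.32 ± 0.40 at 4 d and 8.45 ± 0.38 at 4 wk postweaning. The lowest mean was at weaning in both arms. Ages next to each other in level overlapped, and in the control arm the arrays of weaning lay below those of 4 wk. The test over age gave an adjusted p of 0.327 in control and 0.134 in amoxicillin piglets in limma. From weaning to 4 d postweaning IGF1 was 0.48 higher in control (95% confidence interval -0.02 to 0.97, adjusted p 0.272 in limma) and 0.50 higher in amoxicillin piglets (0.02 to 0.98, adjusted p 0.202 in limma). When arrays were scaled to a common 75th percentile instead, the control age test passed (adjusted p 0.0436).

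GHR, which receives growth hormone, had its highest mean at day 7 in both arms, at 9.57 ± 0.54 (SD, n = 6) in control and 9.81 ± 0.32 (n = 4) in amoxicillin piglets. Its spread was wider at weaning and 4 d postweaning than on days 1 and 7 in both arms. The 3 control arrays of weaning read 7.44, 8.46 and 9.99 and the 4 amoxicillin arrays 6.36, 8.03, 8.62 and 10.17, so single piglets differed by more than the means of any 2 ages. At 4 wk postweaning GHR averaged 8.51 ± 1.3 in control and 8.19 ± 0.58 in amoxicillin piglets. The adjusted p over age was 0.398 in control and 0.113 in amoxicillin piglets in limma. In the amoxicillin arm the arrays of day 7 (9.53 to 10.11) lay above those of day 1 (8.28 to 9.39) and of 4 wk postweaning (7.43 to 8.74), and the step from day 1 to day 7 was 0.87 (95% confidence interval -0.32 to 2.07, not called). Without amoxicillin piglet 25 at weaning, the array with 10.17, GHR was called over age in that arm (adjusted p 0.0233) and in the step from day 7 to weaning (-2.14, adjusted p 0.0155, against -1.51 and 0.0899 with it).

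IGF2R, the receptor that clears IGF2, had its lowest means after weaning in both arms. In control piglets it ranged from 8.07 to 8.53 (median 8.25) at day 1 and from 7.42 to 8.19 (median 7.75) at day 7. At weaning the control arrays read 6.86, 7.27 and 8.54. Those of 4 d postweaning read 6.80, 6.83, 6.98, 7.05 and 7.26, and those of 4 wk 6.91, 7.04 and 7.13. The control arrays after weaning all lay below every array of days 1 and 7, with weaning spanning both. In amoxicillin piglets IGF2R read 7.96, 7.98, 8.09 and 8.12 at day 1, and 6.14, 6.32, 6.68 and 7.05 at 4 wk postweaning, with the other ages between 6.54 and 8.22. The adjusted p over age was 0.000573 in control and 0.000921 in amoxicillin piglets in limma, while no single step was called. As IGF2R passed the filter through day 1, its highest age, the fit without the filter is the safer one, and there the adjusted p were 0.00175 and 0.00189.

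From day 1 to 4 wk postweaning the mean of IGF2R differed by -1.23 in control and -1.49 in amoxicillin piglets. All 4 of its probes moved the same way, by -1.65 to -0.81 in control and -1.88 to -0.89 in amoxicillin piglets. At 4 wk postweaning 2 of the 4 amoxicillin arrays had a probe of IGF2R well above background. With the slide as a fixed block the adjusted p over age rose to 0.988 in control and 0.349 in amoxicillin piglets, and at a common 75th percentile it was 0.0579 in amoxicillin piglets.

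IGF1R, the signalling receptor, was dim. Its 2 probes averaged 7.85 ± 0.34 (SD, n = 6) at day 1 and 6.75 ± 0.57 (n = 3) at 4 wk postweaning in control piglets. The amoxicillin means were 7.37 ± 0.49 at day 1, 7.69 ± 0.44 at day 7, 6.35 ± 0.36 at weaning, 6.62 ± 0.34 at 4 d and 6.08 ± 1.12 at 4 wk postweaning. In control piglets the 6 arrays of day 7 (7.24 to 7.82) lay above the 3 of weaning (6.82 to 7.22), and in amoxicillin piglets 2 of 4 arrays at weaning and 1 of 4 at 4 wk postweaning had a probe well above background. In a fit without the filter on dim genes IGF1R was called over age in both arms (adjusted p 0.0249 in control and 0.00111 in amoxicillin, limma), and in the amoxicillin step from day 7 to weaning (-1.34, adjusted p 0.0170). That fit called 4814 of 35334 genes over age in control and 12297 in amoxicillin piglets, and 1769 in that step.

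Of the binding proteins, IGFBP3, the main carrier of IGF in blood, had the largest difference between the first and last age. In control piglets it ranged from 7.43 to 8.65 (median 8.35) at day 1 and from 7.97 to 9.55 (median 8.71) at day 7. The 3 control arrays of weaning read 7.10, 7.89 and 8.34, those of 4 d postweaning 6.42, 6.46, 6.60, 6.66 and 7.20, and those of 4 wk 6.45, 6.61 and 7.39. All 8 of the control arrays after weaning lay below the lowest array of day 1. The reading of 7.39 was piglet 34, on which the probe was not well above background. In amoxicillin piglets IGFBP3 read 6.78, 7.89, 8.47 and 9.06 on day 1 and 6.81, 8.14, 8.28 and 8.68 on day 7. The weaning arrays of this arm read 6.76, 7.21, 7.25 and 8.78, those of 4 d postweaning 6.46, 6.96, 7.22 and 7.25, and those of 4 wk 5.67, 6.02, 6.06 and 6.20. The 4 arrays of the last age lay below all others of the arm.

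The adjusted p of IGFBP3 over age was 0.000115 in control and 0.000583 in amoxicillin piglets in limma, and no single step was called. It passed the filter through the control group of day 7 alone, its highest, and in the fit without the filter the adjusted p were 0.000295 and 0.000971. Its mean at 4 wk postweaning differed from day 1 by -1.43 in control piglets. In amoxicillin piglets its probe was not well above background on any of the 4 arrays of 4 wk and was so on 3 of 4 arrays of day 1, so the measured group means of 5.99 and 8.05 give no exact fold. With the slide as a fixed block the age test gave adjusted p of 0.608 in control and 0.271 in amoxicillin piglets in limma. That fit called 66 and 1328 of all 12771 genes over age in these arms.

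IGFBP2, which binds IGF2 more tightly than IGF1, had its highest mean at day 7 and lower ones after weaning. The control arrays ranged from 9.24 to 9.81 (median 9.51) at day 1 and from 9.57 to 11.16 (median 10.00) at day 7. Those of weaning read 8.10, 9.15 and 9.89, those of 4 d postweaning 7.88, 7.92, 8.44, 8.59 and 9.02, and those of 4 wk 8.77, 8.80 and 9.12. All 5 control arrays of 4 d postweaning lay below all 12 of days 1 and 7. In amoxicillin piglets IGFBP2 read 9.63, 9.69, 10.32 and 10.56 on day 1 and 9.11, 9.90, 10.87 and 11.21 on day 7. The weaning arrays of this arm read 6.94, 8.29, 8.54 and 10.89, those of 4 d postweaning 7.46, 8.29, 8.86 and 9.14, and those of 4 wk 8.20, 8.43, 8.51 and 9.62. The weaning arrays of this arm covered almost the whole range of all ages. The adjusted p over age was 0.0207 in control and 0.00491 in amoxicillin piglets in limma. The control call was lost with the slide as a random block (adjusted p 0.108) and the amoxicillin call on the arrays of that arm alone (0.0749).

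The step of IGFBP2 from day 7 to weaning was called in the amoxicillin arm (-1.61, SE 0.51, adjusted p 0.0377 in limma) and not in the control arm (-1.09, SE 0.51, adjusted p 0.487), and the test of the treatment contrast between ages had an adjusted p of 0.906. This step lost its call without any 1 of amoxicillin piglets 4, 21 and 24 of day 7 or 7, 8 and 29 of weaning (adjusted p 0.0527 to 0.197), and without piglet 8 it was -1.04. The control age test lost its call without control piglet 23 of day 7 or without piglet 29 or 32 of 4 d postweaning (0.0512 to 0.0588). With the slide as a fixed block IGFBP2 was called over age in neither arm (adjusted p 0.636 and 0.254 in limma). That fit called 66 and 1328 of all 12771 genes over age in control and amoxicillin piglets.

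IGFBP5, a binding protein held in the matrix around smooth muscle and stromal cells, did not follow these courses. Its means lay between 9.51 and 10.21 in the control and between 9.17 and 10.00 in the amoxicillin arm, and every pair of ages neighbouring in level was closer than the larger SD. The single arrays ranged from 7.94 to 11.18. The adjusted p over age was 0.802 in control and 0.546 in amoxicillin piglets in limma. It was well above background on every array, and it is the neighbour of IGFBP2 on its chromosome in the Sscrofa11.1 annotation.

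IGFBP4, which the protease PAPPA cleaves, had its 1 probe well above background on 28 of 43 arrays, the fewest of the 9 genes. Its means in control piglets were 7.08 ± 0.19 (SD, n = 6) at day 1, 6.99 ± 0.27 at day 7, 6.54 ± 0.52 at weaning, 6.32 ± 0.60 at 4 d and 6.06 ± 0.40 at 4 wk postweaning. In amoxicillin piglets it was not well above background on any array at weaning or at 4 wk postweaning, where the measured means were 6.24 and 5.52. In the fit without a filter its adjusted p over age was 0.00372 in amoxicillin and 0.0563 in control piglets in limma, and with a filter on spots well above background it was called in both arms. The arms were not shown to differ in this, with an adjusted p of 0.429 for the treatment contrast between ages. Over age, the fit without a filter called 4814 of 35334 genes in control and 12297 in amoxicillin piglets. The filter on spots well above background gave 5108 and 9170 of 20648.

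Counted over the 7 tested genes, 4 were called between the 5 ages in the control arm, where 30.5% of all tested genes were, and 4 in the amoxicillin arm, where 47% were. Since part of the 7 passed the filter only through early ages, nothing is drawn from these shares. Of the steps between neighbouring ages, weaning to 4 d postweaning called 2.53% of all genes in control and 6.37% in amoxicillin piglets, and 4 d to 4 wk postweaning 0% (789 genes at an unadjusted p under 0.05) and 12.7%. No tested gene of the axis was among them. The smallest adjusted p in those steps were 0.14 (IGFBP3) and 0.897 (IGF2) in control and 0.202 (IGF1) and 0.101 (IGF2R) in amoxicillin piglets in limma, with 1, 0, 1 and 2 of the 7 genes at an unadjusted p under 0.05.

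**Figure D3:**
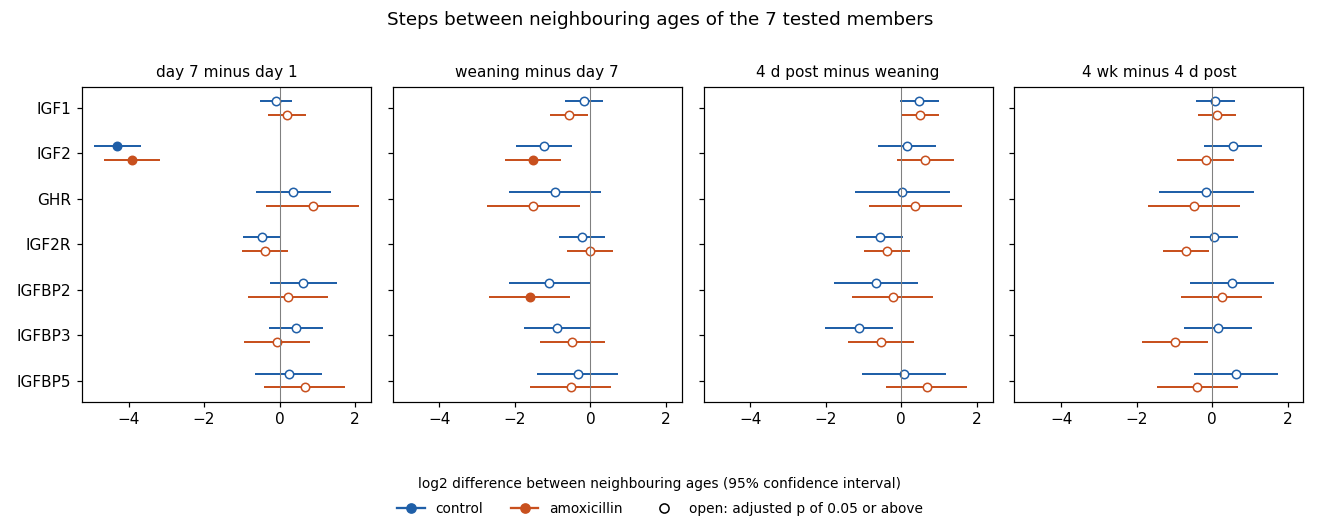
Log2 difference between neighbouring ages (x axis) of the 7 tested genes (y axis) in the control (blue) and amoxicillin (orange) arm, with 95% confidence intervals as lines and filled points for an adjusted p under 0.05. The 4 filled points are IGF2 from day 1 to day 7 in both arms (-4.30 and -3.91) and IGF2 and IGFBP2 from day 7 to weaning in the amoxicillin arm (-1.53 and -1.61).

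The second question was whether the arms differed at a given age. A gene was called at an adjusted p under 0.05 together with a log2 fold change beyond 1.5, and 0 of the 7 tested genes were called at any of the 5 ages. Of all tested genes 0.211% were called at day 1, 0% at day 7 (887 at an unadjusted p under 0.05), 3.41% at weaning, 1.54% at 4 d and 2.13% at 4 wk postweaning. In limma 0 of the 7 genes had an unadjusted p under 0.05 at any age. The smallest was 0.0746, for IGFBP3 at 4 wk postweaning, where the amoxicillin mean of 5.99 lay 0.83 below the control mean of 6.82 (95% confidence interval -1.74 to 0.09, adjusted p 0.349). None of those 4 amoxicillin arrays and 2 of the 3 control arrays were well above background.

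IGF2, which differed most over age, was not called between the arms. Its amoxicillin minus control difference was -0.12 (95% confidence interval -0.78 to 0.54) at day 1, 0.27 (-0.39 to 0.93) at day 7, -0.03 (-0.81 to 0.75) at weaning, 0.46 (-0.23 to 1.15) at 4 d and -0.27 (-1.05 to 0.51) at 4 wk postweaning. For IGF1 the 5 differences lay between -0.03 and 0.35, and the intervals reached from -0.55 to 0.79 at most. For IGF2R they lay between -0.48 and 0.26 (intervals from -1.11 to 0.82). These 3 genes had intervals inside the threshold of 1.5 at all ages. The intervals of GHR and IGFBP2 reached -1.63 and -1.51 at weaning. Those of GHR, IGFBP3 and IGFBP5 reached -1.615, -1.74 and -1.74 at 4 wk postweaning. All of these include a lower level in amoxicillin piglets of the size of the threshold.

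Differences of the 7 genes were positive in 2 of 7 at day 1 (median -0.193 against -0.12 for all tested genes). At day 7 they were positive in 4 of 7 (0.137 against -0.065) and at weaning in 1 of 7 (-0.192 against -0.066). After weaning they were positive in 6 of 7 at 4 d (0.26 against -0.01) and 1 of 7 at 4 wk (-0.32 against -0.17). None was called. The test of the treatment contrast between ages, which called 6.18% of all genes, called 0 of the 7 (0 at an unadjusted p under 0.05), with adjusted p of 0.654 (IGFBP3) to 0.982 (GHR) in limma. IGF2R was called in it only when each probe was entered as 1 value, where a gene counted as called if any of its probes was. The smallest adjusted p of its 4 probes was 0.0246 in limma. These probes gave amoxicillin minus control differences of -0.37 to 0.88 at weaning and -0.29 to 0.72 at 4 d postweaning.

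**Figure D4:**
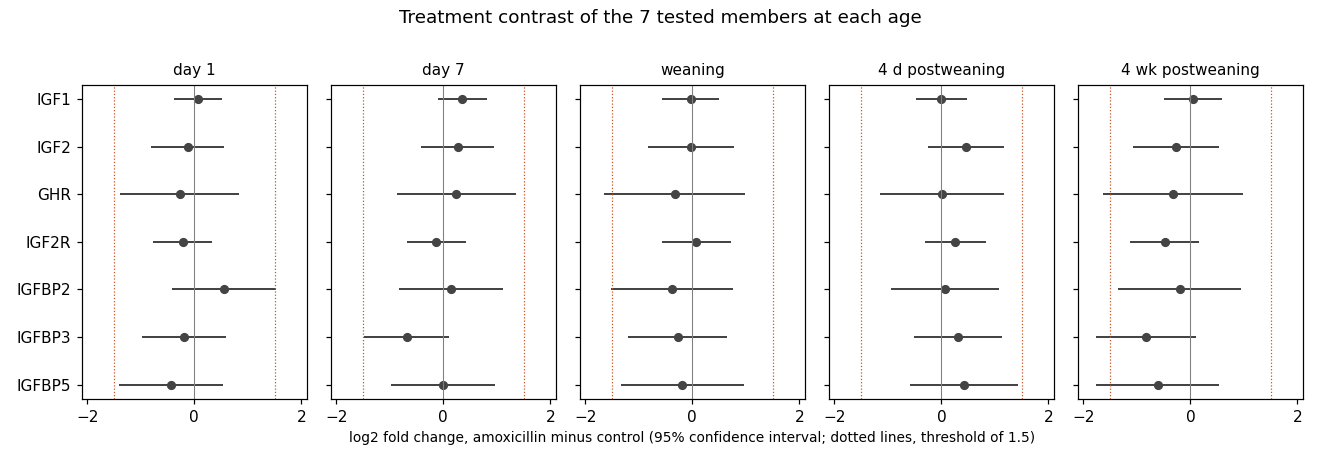
Amoxicillin minus control log2 fold change (x axis) of the 7 tested genes (y axis) at each age, with the 95% confidence interval as a line and the threshold of 1.5 dotted. All intervals include 0, and those of IGF1, IGF2 and IGF2R lie inside the threshold at all 5 ages.

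A wider list of 57 genes of growth hormone, insulin and IGF signalling had 25 members with a named probe, of which 12 were tested. They included the hormones INS and GHRL, the binding proteins IGFBP6 and IGFBP7, and AKT1, JAK2 and STAT5B, which relay receptor signals. None of the 12 was called between the arms at any age, where 0% to 3.41% of all tested genes were. Of the 12, 0, 0, 2, 1 and 2 had an unadjusted p under 0.05 in limma at the 5 ages in order. Over age 7 were called in the control arm, where 30.5% of all tested genes were, and 6 in the amoxicillin arm, where 47% were. Of these, 5 were called in both arms (INS, GHRL, STAT5B, IGFBP7 and JAK2). In the step from day 1 to day 7 INS alone of the 12 was called, in both arms, and it had passed the filter through the day 1 groups only. From day 7 to weaning 3 of the 12 were called in the amoxicillin arm, beside 11.3% of all genes: AKT1 rose (1.05), IGFBP7 fell (-1.21), and INS was lower at weaning, where it was not well above background on any array. From 4 d to 4 wk postweaning JAK2 and STAT5B were lower at 4 wk in that arm (-1.12 and -0.72), beside 12.7% of all genes, and no other step was called. The amoxicillin group of 4 wk was the dimmest, and JAK2 and STAT5B averaged 7.77 and 7.61 there, near the filter of 7.68. The part of its dimness in these values was not tested.

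GHRL encodes ghrelin, which releases growth hormone. It averaged 11.34 ± 0.98 (SD, n = 6) at day 1 and 8.82 ± 1.17 (n = 3) at 4 wk postweaning in control piglets, and 12.17 ± 1.18 and 9.60 ± 1.26 (n = 4 each) in amoxicillin piglets, with adjusted p over age of 0.00154 and 0.00813 in limma. IGFBP7, a low-affinity binding protein of vessels and stroma, differed by -0.53 between 4 wk and day 1 in control and by -0.52 in amoxicillin piglets (adjusted p over age 0.0349 and 0.0343). JAK2, the kinase that GHR uses, differed by 1.09 between 4 wk and day 1 in control piglets and by -0.03 in amoxicillin piglets (adjusted p over age 0.0122 and 0.0183), and the test of the treatment contrast between ages gave an adjusted p of 0.339 in limma.

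Markers of several cell types differed with age as well, and their part in the courses above was not tested. Of 6 genes listed for liver, 4 had a probe, and their summed log2 level was 15.52 to 16.04 at day 1, 12.73 to 16.01 at day 7 and 9.17 to 12.98 from weaning on. This sum was carried by APOA2, which averaged 15.88 at day 1 and 15.01 at day 7 in control piglets and 9.57 at weaning. ALB, the defining liver gene, averaged 5.22 to 6.03 in all groups, and TTR 4.79 to 6.03. SERPINA1 averaged 10.02 at day 1 and 9.39 at day 7 in control and 9.52 and 8.81 in amoxicillin piglets. Of 7 pancreas genes, 5 had a probe. AMY2 was highest at day 1, at 11.39 in control and 11.60 in amoxicillin piglets, and lowest at 4 wk postweaning, at 9.12 and 9.67. CELA2A averaged 7.58 to 9.51 over the groups, CPA1 5.67 to 7.78, and PNLIP and CPB1 4.52 to 5.45.

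Of 12 fibroblast genes, 5 had a probe, with group means of their sum from 14.25 (control) and 13.99 (amoxicillin) at day 1 to 13.56 and 12.87 at 4 wk postweaning. The 4 endothelial genes with a probe (of 6) went from 12.34 to 11.05 in control piglets and from 12.18 to 11.78 in amoxicillin piglets, with 10.89 at weaning. The 6 smooth muscle genes with a probe (of 10) were highest at day 7, at 14.04 and 14.15, and lowest at 4 d postweaning, at 12.44 and 12.88. All 6 T cell genes had a probe, and their sum was 9.40 and 9.18 at day 1 and 12.56 and 13.12 at 4 wk. Of the tested genes of these lists, 3 of 4 for fibroblasts and 3 of 4 for endothelium were called over age in each arm, all 5 for T cells in each arm, and those for smooth muscle 5 of 5 in control and 0 of 5 in amoxicillin piglets. For B and plasma cells 3 of 6 genes had a probe, 0 of them well above background on every array. At weaning their sum ranged from 8.36 to 14.90 in control and from 8.81 to 15.37 in amoxicillin piglets. At day 1 it ranged from 6.77 to 9.10 and from 6.38 to 9.67. On the amoxicillin array of piglet 8 at weaning, GHR, IGFBP2 and IGF2 had their lowest values of all 43 arrays (6.36, 6.94 and 7.57). Without that array and that of control piglet 34 at 4 wk postweaning, IGF2, IGF2R, IGFBP2 and IGFBP3 were still called over age in both arms, and the amoxicillin step of IGFBP2 was not (-1.03, adjusted p 0.198 in limma).

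The genes whose levels ran most like each member over the 43 arrays were also listed, as a description, since arrays share age, slide and normalization. For IGF2 these were INS (Pearson r 0.94), FTCD (0.88) and PEMT (0.87), and after the mean of each group was subtracted r was 0.08, 0.40 and 0.53. For IGF2R they were ARSA, a lysosomal sulfatase (0.86), TGFA (0.86) and FOLR2 (0.85), with 0.77, 0.69 and 0.60 within groups. IGFBP2 ran most like VCL (0.81), GATM and CAV2 (0.78 each), and IGFBP3 most like MAGED1 (0.82), USP51 and TPM1 (0.76 each). For GHR they were ABCD3 (0.75), DGAT2 (0.74) and ATP2B1 (0.73), the first a peroxisomal transporter and the second an enzyme of triglyceride synthesis, and for IGFBP5 the complement gene C7 (0.61), MYL9 (0.60) and SERPINE2 (0.59). IGF1 had no close likeness, with SFTPD (0.56), GALM (0.53) and BPI (0.53) first among 1857 genes with a symbol.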

How the data were processed

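The authors labelled jejunal RNA with Cy3, scanned the arrays with Feature Extraction 10.7.3.1 and deposited the linear median intensity and local background of each of 45122 spots. They also deposited a table of log2 values, made per the methods with R 3.0.2 and limma by normexp (offset 1) and quantile normalization. Repeating these steps on the intensities with limma 3.58.1 in R 4.3.3 gave the deposited log2 values within 5e-09. Outlier-flagged spots were left out and spots of an accession averaged. The highest dark-corner spot without a flag (6.98) times 1.1 was the filter.

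One limma fit of 10 groups of arm and age gave contrasts between arms, moderated F-tests over ages, steps and an interaction, adjusted (Benjamini-Hochberg) over 12771 genes, of which 296 lacked a value on at least 1 array. Slide is the array carrier as the scan headers give it. The fit was tested on simulated data. The members, related genes (57), markers and alternatives were chosen with earlier results of these data known. Named genes are all members, related genes called between arms or at most 4 examples by difference between 4 wk postweaning and day 1, and the 3 genes most like each tested member; STAT5B, AKT1 and the other related genes in the text were named after their values were seen. Symbols came from a RefSeq table of Sscrofa11.1, and 2978 accessions had one. The alternatives were another offset, 2 scalings by a 75th percentile, other filters, flags kept, probes fitted singly, the deposited table, arrays of 1 age or 1 arm, slide and piglet number as blocks, other fold thresholds and leaving out each array. Left out together, added after seeing the data, were control piglet 34 (4 wk) and amoxicillin piglet 8 (weaning). Precision is limited by 3 to 6 arrays a group.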

Additional observations from a re-analysis of the deposited data

Results flagged for a closer look

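Among 72 groups of 4 to 6 arrays of the 9 genes, 1 array stood apart from the rest of its group by Dixon's criterion, which chance meets in about 1 of 20 groups. IGF1 read 7.88 on amoxicillin piglet 40 at 4 wk postweaning, against 8.61 to 8.68 on the other 3 arrays of that group. The gap was 0.916 of the range of the group.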

How the results depend on the processing

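In every setting run, 0 of the tested genes were called between the arms at each of the 5 ages, and IGF2 was called from day 1 to day 7 in both arms (-4.44 to -4.22 in control and -4.56 to -3.84 in amoxicillin piglets over the settings other than leaving out single arrays). The number called over age, 4 in each arm, was 1 in each once slides were a fixed block. That fit called 66 of all 12771 genes over age in control and 1328 in amoxicillin piglets. When each array was left out in turn, 3 to 4 were called over age in control and 4 to 5 in amoxicillin piglets. With the piglet number as a replicate block 1 was called over age in each arm, beside 49 and 38 of all 12771 genes. The step from day 7 to weaning in amoxicillin piglets then had 0 called. Of 10 pairs of same-numbered piglets of both arms at an age, 4 had deviations from their group means that correlated above 0.1 (range -0.274 to 0.443). Whether same-numbered piglets share more than a number was not tested. The amoxicillin step from day 7 to weaning, with 2 genes called, had 1 with slides as a fixed or a random block. It also had 1 without the 2 arrays chosen after seeing the data. With the arrays of each arm alone it had 0, and when each array was left out 1 to 3. The call left with slides as a fixed block was IGF2 (-2.89). It came from 4 weaning arrays and 1 day 7 array, piglet 24, which at 11.66 had the highest IGF2 after day 1. The last amoxicillin step had 1 called with either other filter (IGFBP4), beside 3706 of 35334 genes without a filter and 2479 of 20648 above background. With 1 value per probe it also had 1 (IGF2R), where a gene counted as called if any of its probes was. With the arrays of each arm alone, the control steps from day 7 to weaning (IGF2) and from weaning to 4 d postweaning (IGFBP3) had 1 called each. The interaction had 1 (IGF2R) with 1 value per probe, by the same rule of any probe. Of 1484 further values over 16 settings, 23 lost and 5 gained their call, 0 reversed while called, and 57 uncalled ones changed sign. All tested genes called over age numbered 49 to 6324 in control and 38 to 12297 in amoxicillin piglets over the settings, against 3900 and 6000. The 12297 were of 35334 genes tested without the filter, and the other counts were of 12771. Scaling to a common 75th percentile moved the median contrast between arms of all genes at weaning from -0.07 to 0.03. Slides as a fixed block give no contrast between arms. The cause of these changes was not tested. IGF1R, IGFBP4, and IGF2R and IGFBP3 at 4 wk postweaning lay near the background and have the least reliable values.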
